A study of Mus musculus with 26 samples.

Results

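The 10 genes described here are germline genes whose promoters are known to be silenced by DNA methylation in somatic cells: *Dazl*, *Ddx4*, *Sycp1*, *Sycp3*, *Mael*, *Tex101*, *Stk31*, *Sohlh2*, *Hormad1* and *Slc25a31*. They were taken by symbol from the gene counts, and all 10 of 10 were found among 52535 gene rows. The cells were of E14, an embryonic stem cell (ESC) line of the mouse, and the title of the series asks how KLF4 bears on early neural differentiation and chromatin structure. The RNA-seq groups were cultures labelled as neural progenitor cells (NPC) after 12 days of neural induction, 2 libraries with genotype Klf4-KO and 2 libraries with genotype WT, all from E14. RNA polymerase II HiChIP, which enriches pairs of distant DNA fragments joined at polymerase-bound sites, was deposited for the same stage as a single list of loops for each genotype. ChIP-seq of ESCs (18 samples) was not analysed here, and no methylation calls were used. The series states 2 biological replicates per condition, and the sources used here do not say how many clones the knockout comes from.

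In cells of the embryo proper, the CpG-rich promoters of such genes are methylated around implantation and stay silent in the soma. Primordial germ cells lose this methylation and the genes come on for the piRNA pathway, which silences transposons, and for meiosis. In ESCs they are also held down by the variant Polycomb complex PRC1.6, in which MGA and MAX can bind E-boxes and E2F6 binds E2F sites. ESCs grown with inhibitors of MEK and GSK3, as these were before induction, are known for low DNA methylation.

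The promoters of the 10 genes were dense in CpG. All 10 matched the RefSeq promoter table (GRCm38.p6, 250 bases before to 50 after the start, 300 in all). They held a median of 23 CpGs, against 7 over the 32841 promoters of this length. The median ratio of observed to expected CpG was 0.788 in the 10 genes and 0.384 over all promoters. *Ddx4* had the highest ratio of the 10, at 0.978, and *Sohlh2* the lowest, at 0.545. The palindromic E-box CACGTG stood in 7 of the 10 promoters, or 70%, against 7.15% of all promoters. Among the 10521 promoters whose CpG ratio lay within the range of the 10 genes, 10.4% held it. TCCCGC, the core of an E2F site, stood on either strand in 6 of the 10, or 60%, against 20% of all promoters and 39.9% of those in the same CpG range. No match of one motif overlapped a match of the other. *Dazl*, *Tex101* and *Sohlh2* held neither motif in this window. Such matches describe letters in the window and say nothing of binding.

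Promoters of 4 of the genes are printed 5′ to 3′ on the gene's own strand. They are those of the largest rise and the largest fall among the 10, of a second gene that rose by more than 2-fold on a low level, and of a gene that fell and has neither motif. Capitals mark CACGTG and TCCCGC or its reverse complement.
Sycp3 (GRCm38.p6, plus strand, chr10:88459337-88459636): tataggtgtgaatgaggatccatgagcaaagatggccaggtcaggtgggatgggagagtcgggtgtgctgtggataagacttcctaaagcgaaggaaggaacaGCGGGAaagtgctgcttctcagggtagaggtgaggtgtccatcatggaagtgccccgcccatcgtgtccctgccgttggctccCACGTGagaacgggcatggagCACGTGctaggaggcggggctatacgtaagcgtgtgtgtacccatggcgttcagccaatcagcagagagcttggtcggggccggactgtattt
Slc25a31 (GRCm38.p6, plus strand, chr3:40708621-40708920): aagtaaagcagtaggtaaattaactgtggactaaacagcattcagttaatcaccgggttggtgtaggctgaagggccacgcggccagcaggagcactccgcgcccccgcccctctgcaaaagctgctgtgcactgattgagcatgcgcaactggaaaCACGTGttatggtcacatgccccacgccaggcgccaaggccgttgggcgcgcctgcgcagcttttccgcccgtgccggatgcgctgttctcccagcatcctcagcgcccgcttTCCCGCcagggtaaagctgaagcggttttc
Stk31 (GRCm38.p6, plus strand, chr6:49395289-49395588): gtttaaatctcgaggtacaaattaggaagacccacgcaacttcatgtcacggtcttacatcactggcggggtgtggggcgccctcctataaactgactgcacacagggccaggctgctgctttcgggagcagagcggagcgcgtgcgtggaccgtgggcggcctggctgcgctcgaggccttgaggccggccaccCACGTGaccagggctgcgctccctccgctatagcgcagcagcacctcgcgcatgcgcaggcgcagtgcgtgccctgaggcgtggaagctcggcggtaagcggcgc
Tex101 (GRCm38.p6, minus strand, chr7:24672001-24672300): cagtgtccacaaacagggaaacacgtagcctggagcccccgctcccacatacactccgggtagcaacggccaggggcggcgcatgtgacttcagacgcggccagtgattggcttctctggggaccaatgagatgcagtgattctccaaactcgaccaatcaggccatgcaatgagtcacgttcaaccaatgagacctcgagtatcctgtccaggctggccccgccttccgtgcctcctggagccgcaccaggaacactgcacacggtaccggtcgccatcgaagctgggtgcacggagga

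In the *Sycp3* promoter the 2 E-boxes start at positions -64 and -43 from the transcription start, and the E2F core at -147. *Slc25a31* has its E-box at -93 and its E2F core at 21, just after the start. *Stk31* has an E-box at -55 and no E2F core. *Hormad1*, whose promoter is not printed, also has 2 E-boxes, at -57 and -20.

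The targeted gene goes against the labels. *Klf4* had 2571 and 2538 counts in the libraries labelled KO and 0 counts in each library labelled WT. Libraries are therefore named by their label, and every direction is KO-labelled over WT-labelled. Gene counts totalled 31909094 and 33347088 in KO-labelled and 37703866 and 29835774 in WT-labelled libraries. All 10 ESC markers stood at 1 CPM (counts scaled to library size) or more in both groups. Their summed level was 4670 and 4750 CPM in KO-labelled and 8590 and 8610 CPM in WT-labelled libraries. By the test given below, 9 of the 10 (90%) were lower in KO-labelled libraries and 1 (10%) was higher. Over all genes tested 35.8% were lower and 37.2% higher. Of 14 neural progenitor markers 11 could be tested, of which 10 were higher and 1, *Tubb3*, lower. These are 90.9% and 9.09%, beside 37.2% and 35.8% of all genes tested. The 14 summed to 323 and 325 CPM in KO-labelled against 228 and 228 CPM in WT-labelled libraries. The order of these sums depends on *Otx2*, with 171 and 168 CPM in KO-labelled and 7.95 and 7.87 CPM in WT-labelled libraries. *Tubb3* gave 22.2 and 20.3 CPM in KO-labelled and 140 and 141 CPM in WT-labelled libraries. *Hes5*, *Neurog2* and *Dcx* were too low to test. The part of this shift in cell state in the results below was not tested, and in bulk RNA fewer expressing cells and less RNA per cell cannot be told apart.

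All 10 germline genes were measurable in both groups, and they did not move together. Of the 10, 4 were higher in KO-labelled libraries (*Sycp3*, *Slc25a31*, *Sycp1*, *Dazl*), 3 were lower (*Stk31*, *Tex101*, *Ddx4*) and 3 did not pass (*Sohlh2*, *Mael*, *Hormad1*) by edgeR's quasi-likelihood test at a Benjamini-Hochberg adjusted p below 0.05. Over all 17273 genes tested the same rule called 73.0% in either direction, 37.2% higher and 35.8% lower, so 7 of 10 is near the background. The groups did not overlap for any of the 10 genes, as for 86.3% of all genes tested. The median log2 fold change was 0.04 over the 10 genes and 0.026 over all genes tested.

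**Figure D1:**
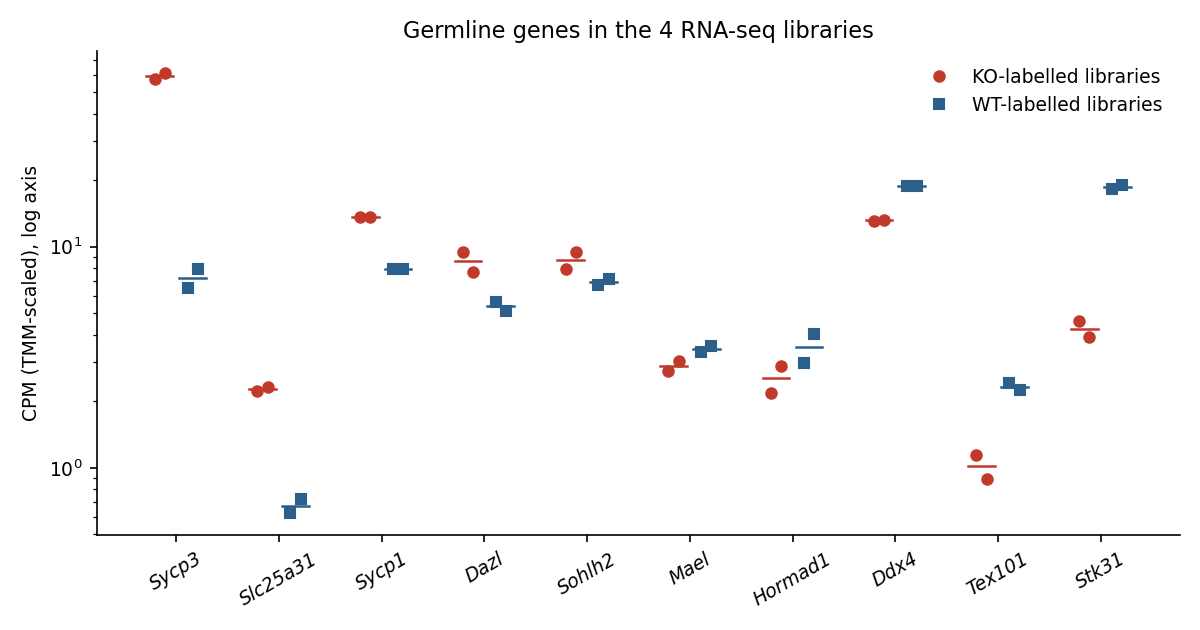
Level of each germline gene in the 4 RNA-seq libraries, as TMM-scaled CPM on a log axis, with KO-labelled libraries as circles and WT-labelled libraries as squares and a bar at each mean (n = 2 each). Genes are ordered by log2 fold change. *Sycp3* stands at 57.3 and 61.2 CPM in KO-labelled libraries, against 6.52 and 7.94 CPM in WT-labelled ones, and *Stk31* shows the opposite order.

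*Sycp3* and *Sycp1*, which encode parts of the synaptonemal complex, both rose. *Sycp3*, a component of the axial elements that line meiotic chromosomes, had 57.3 and 61.2 CPM in KO-labelled libraries and 6.52 and 7.94 CPM in WT-labelled libraries. Both KO-labelled libraries were far above both WT-labelled ones. *Sycp3* was 8.25-fold higher (log2 3.04 ± 0.095, SE; adjusted p = 2.42e-19), a larger change in size than that of 90.9% of genes tested. The annotated span of *Sycp3* (mm10, chromosome 10, 88459587 to 88473236) overlaps that of *Chpt1*, which encodes a choline phosphotransferase, and the strand setting of the counts is not given in the sources used here, so reads in the overlap cannot be told apart. *Chpt1* itself was lower in the KO-labelled libraries, at 13.6 and 11.6 CPM against 23.1 and 21.2 CPM in WT-labelled ones.

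*Sycp1* (chromosome 3, 102818499 to 102936100) encodes the transverse filament that joins the paired axes. It had 13.6 and 13.7 CPM in KO-labelled libraries and 7.92 and 7.91 CPM in WT-labelled libraries, so replicates nearly coincided while the groups stood apart. The rise was 1.73-fold (log2 0.79 ± 0.13; adjusted p = 8.82e-06). *Hormad1* (chromosome 3, 95559677 to 95587863), a HORMA-domain protein of unsynapsed chromosome axes, had 2.19 and 2.90 CPM in KO-labelled libraries and 2.99 and 4.04 CPM in WT-labelled libraries. Its groups came close to each other and the difference did not pass (log2 -0.46 ± 0.28; adjusted p = 0.138). Without WT-labelled replicate 1 it did, at log2 -0.67 (adjusted p = 0.0424).

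Genes of germ cell RNA went both ways. *Ddx4* (chromosome 13, 112598333 to 112652633), the mouse vasa homologue and an RNA helicase of germ granules, had 13.1 and 13.2 CPM in KO-labelled libraries and 18.9 and 18.8 CPM in WT-labelled libraries. Its levels differed little within a group, and it fell by 0.52 ± 0.11 on the log2 scale (adjusted p = 0.000165). *Dazl* (chromosome 17, 50279393 to 50293620), an RNA-binding protein that controls translation in germ cells, had 9.45 and 7.72 CPM in KO-labelled libraries and 5.61 and 5.13 CPM in WT-labelled libraries. KO-labelled replicate 1 was the highest of the 4, and the rise was 1.59-fold (log2 0.67 ± 0.17; adjusted p = 0.00127). *Mael* (chromosome 1, 166201385 to 166238744), the maelstrom homologue of the piRNA pathway, had 2.74 and 3.04 CPM in KO-labelled libraries and 3.33 and 3.54 CPM in WT-labelled ones. That difference did not pass (log2 -0.25 ± 0.26; adjusted p = 0.394).

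*Stk31* (chromosome 6, 49395506 to 49469506), which encodes a germ cell protein with a Tudor and a kinase domain, showed the largest fall among the 10. It had 4.61 and 3.90 CPM in KO-labelled libraries and 18.3 and 19.0 CPM in WT-labelled libraries. Both WT-labelled libraries were far above both KO-labelled ones, and *Stk31* was 4.38-fold lower (log2 -2.13 ± 0.14; adjusted p = 8.97e-13). *Tex101* (chromosome 7, 24668012 to 24672050), a surface glycoprotein of male germ cells, had 1.14 and 0.892 CPM in KO-labelled libraries and 2.42 and 2.24 CPM in WT-labelled ones. These were 39 and 32 counts in KO-labelled against 85 and 62 counts in WT-labelled libraries, so the fall, 1.2 ± 0.37 on the log2 scale, is known less exactly (adjusted p = 0.00545).

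*Slc25a31* (chromosome 3, 40708871 to 40726094), the germ cell ADP/ATP carrier of mitochondria also known as ANT4, had the fewest counts of the 10 in the WT-labelled libraries. It had 76 and 83 counts (2.22 and 2.31 CPM) in KO-labelled libraries and 22 and 20 counts (0.626 and 0.722 CPM) in WT-labelled libraries. The KO-labelled libraries were both higher, and the rise was 3.36-fold (log2 1.75 ± 0.40; adjusted p = 0.000379). *Sohlh2* (chromosome 3, 55182044 to 55209957), a basic helix-loop-helix factor of spermatogonia and oocytes, had 7.96 and 9.45 CPM in KO-labelled libraries and 6.69 and 7.11 CPM in WT-labelled ones. It missed the threshold (log2 0.34 ± 0.16; adjusted p = 0.0631). *Sohlh2* passed with library size alone as the scaling (0.55, adjusted p = 0.00386), with upper-quartile factors (0.42, adjusted p = 0.0214) and without KO-labelled replicate 1 (0.45, adjusted p = 0.0457).

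**Figure D2:**
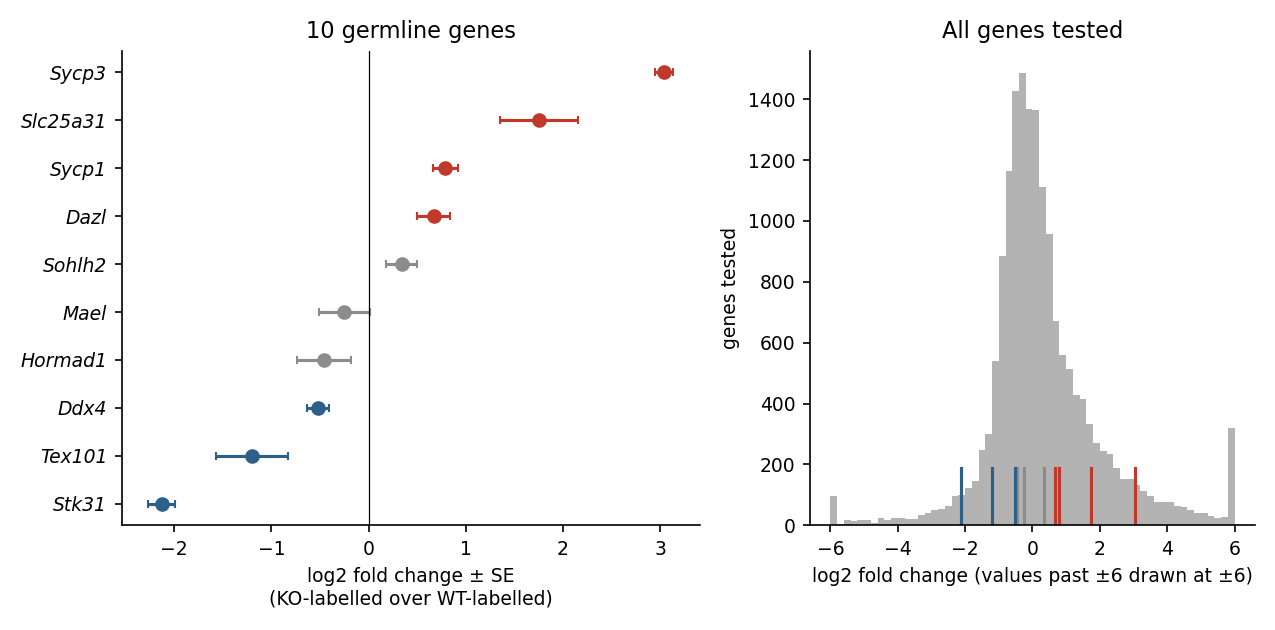
Left, log2 fold change of each germline gene (KO-labelled over WT-labelled, 2 libraries each) with its standard error, in red where called higher, blue where called lower and grey where not called. Right, the log2 fold changes of all 17273 genes tested, with the 10 genes as ticks. The 10 genes run from -2.13 for *Stk31* to 3.04 for *Sycp3* and lie on both sides of 0.

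Summed over the 10 genes the level was 114 and 118 CPM in KO-labelled libraries and 73.3 and 76.5 CPM in WT-labelled libraries. *Sycp3* made up 50.1% and 51.7% of that sum in KO-labelled and 8.9% and 10.4% in WT-labelled libraries. Leaving out *Sycp3*, a choice made after its values were seen, turned the order, with 57.1 and 57.1 CPM in KO-labelled and 66.8 and 68.5 CPM in WT-labelled libraries. That turned order in its turn depends on *Stk31*, with 4.61 and 3.90 CPM in KO-labelled and 18.3 and 19.0 CPM in WT-labelled libraries. Over all genes 6428 were higher and 6189 lower. With library size alone these counts were 7816 and 4788 and the median of all genes shifted to 0.236. Each of the 10 genes kept its direction under that scaling.

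Of 36 other genes of meiosis tested, 19 rose and 6 fell, or 52.8% and 16.7%, where all genes tested gave 37.2% and 35.8%. Their median log2 fold change was 0.39, and the list was not tested against other genes. *Meiob*, a single-strand DNA-binding protein of meiotic recombination, had 4.14 and 2.95 CPM in KO-labelled and 0.228 and 0.217 CPM in WT-labelled libraries (log2 3.97 ± 0.43; adjusted p = 9.93e-09). *Rnf212*, a crossover factor, had 30 and 35 counts in KO-labelled libraries and 0 counts in both WT-labelled ones, and was at least 9.55-fold higher against a floor of 3 counts per library. *Stra8*, the retinoic acid-induced gene of meiotic entry, went the other way with 0 and 1 counts in KO-labelled against 243 and 181 counts in WT-labelled libraries, a ratio of 474 in favour of the WT-labelled libraries (exact binomial 95% interval 84.6 to 18800, counting error only). The fitted log2 change of *Stra8*, -8.55 with all libraries, was -7.73 without KO-labelled replicate 1 and -10.77 without KO-labelled replicate 2. *Mei4*, which is needed for meiotic DNA breaks, fell by 1.55 ± 0.31 (adjusted p = 0.000105). *Spo11*, which makes those breaks, and the genes *Tex12*, *Rad21l* and *Majin* of the same list were too low to test.

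Of 17 genes of the piRNA pathway tested 6 rose and 6 fell, 35.3% each way and near the 37.2% and 35.8% over all genes tested, with a median log2 fold change of 0.13, and with library size alone 8 rose and 5 fell. The Tudor-domain genes *Tdrd5* and *Tdrd7* rose, *Tdrd5* to 16.7 and 14.8 CPM in KO-labelled libraries against 0.598 and 1.05 CPM in WT-labelled ones (log2 4.29 ± 0.22; adjusted p = 3.84e-15). *Tdrd7* had 7.40 and 8.36 CPM in KO-labelled against 0.797 and 0.830 CPM in WT-labelled libraries (log2 3.27 ± 0.25; adjusted p = 2.02e-11). *Tdrd9*, an RNA helicase of the pathway, fell by 2.36 ± 0.56 on 14 and 7 counts in KO-labelled against 44 and 52 counts in WT-labelled libraries (adjusted p = 0.000626), with values of -2.97 without KO-labelled replicate 1 and -1.93 without KO-labelled replicate 2. *Henmt1*, the methyltransferase of piRNA ends, had 0 counts in both KO-labelled libraries and 24 and 20 in the WT-labelled ones, at least 8.22-fold lower against the same floor.

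**Figure D3:**
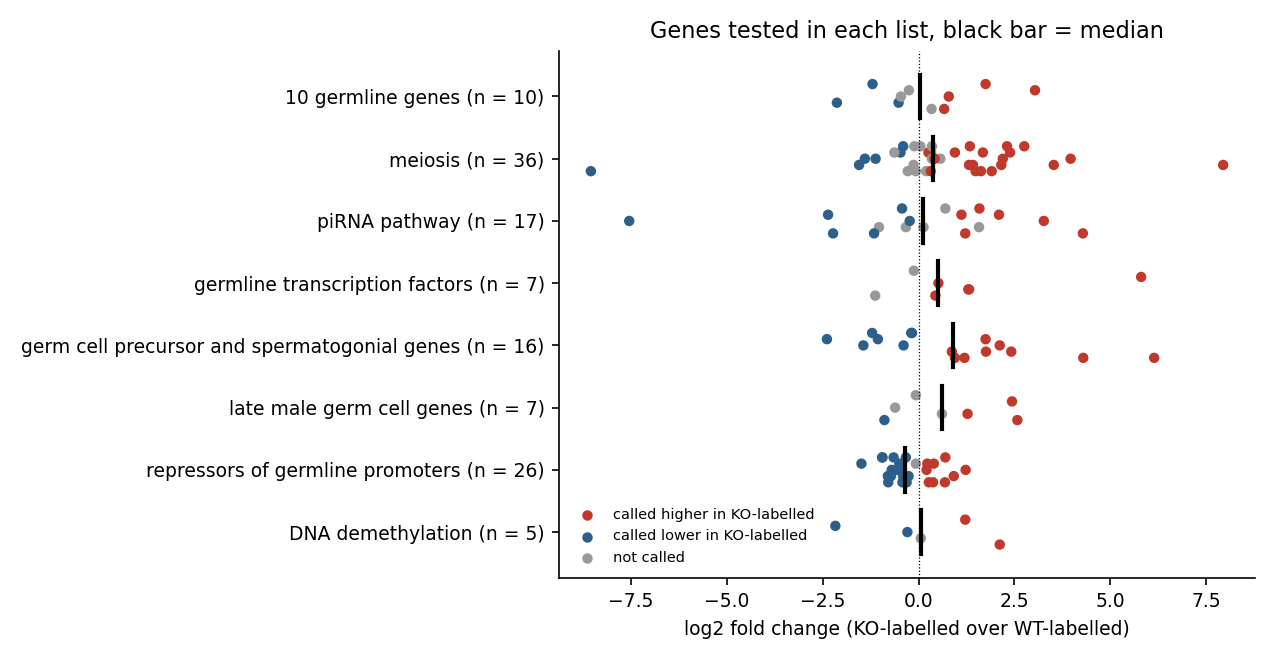
Log2 fold change (KO-labelled over WT-labelled) of every gene tested in the 10 germline genes and in 7 lists of related genes, each point a gene, in red where called higher, blue where called lower and grey where not called. Black bars mark medians, which are 0.04 for the 10 genes, 0.39 for meiosis and -0.37 for repressors of germline promoters.

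Of 15 germline transcription factors 7 were tested and 5 rose, or 71.4% beside 37.2% of all genes tested. None was called lower by edgeR with all 4 libraries and the filter on low counts, where none had an unadjusted p below 0.05 in that direction, or by DESeq2. With edgeR 1 was called lower without the filter, without KO-labelled replicate 1 and without WT-labelled replicate 2. *Ovol1*, a zinc-finger gene expressed in testis and epithelia, had 87 and 52 counts in KO-labelled libraries and 1 and 1 counts in WT-labelled ones, a ratio of 62.2 (95% interval 16.9 to 519). *Dmrtb1* rose by 1.32 ± 0.44 (adjusted p = 0.0094), a call lost without KO-labelled replicate 1 (adjusted p = 0.0527) or WT-labelled replicate 2 (adjusted p = 0.0736), and its value was 1.92 without WT-labelled replicate 1. The X-linked homeobox genes *Rhox5*, *Rhox6*, *Rhox9* and *Rhox13*, *Sohlh1* and the oocyte factors *Figla*, *Nobox* and *Lhx8* had at most 22 counts in any library and were not tested. Of these, *Sohlh1* had 1 and 1 counts in KO-labelled and 22 and 7 counts in WT-labelled libraries. That is a ratio of 16.2 in favour of the WT-labelled libraries (95% interval 4.1 to 140, counting error only).

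Of 16 genes of germ cell precursors and spermatogonia tested 9 were higher and 7 lower, or 56.2% and 43.8%, beside 37.2% and 35.8% of all genes tested. *Zbtb16*, a spermatogonial zinc-finger factor, had 7.32 and 7.39 CPM in KO-labelled and 0.256 and 0.505 CPM in WT-labelled libraries (log2 4.30 ± 0.31; adjusted p = 6.28e-12). *Pou3f1*, which also marks the epiblast, had 53.4 and 55.2 CPM in KO-labelled libraries against 1.2 and 0.217 CPM in WT-labelled ones (log2 6.15 ± 0.36; adjusted p = 0.000149), and its value was 7.94 without WT-labelled replicate 1 and 5.49 without WT-labelled replicate 2. *Kit*, the receptor of stem cell factor, fell to 64.7 and 58.4 CPM in KO-labelled libraries, against 326 and 320 CPM in WT-labelled ones, and *Prdm14* fell by 1.44 ± 0.068. Both are also expressed in ESCs. Defining genes of late male germ cells were near or at 0. Of 20 such genes 13 were too low to test, and among these *Tnp1*, *Tnp2*, *Pgk2* and *Catsper1* had 0 counts in all 4 libraries. The 7 tested gave 3 rises and 1 fall, or 42.9% and 14.3%, beside 37.2% and 35.8% of all genes tested. Only 2 rises were called with DESeq2, without the filter, with the replicate block or at an adjusted p below 0.01. Among the rises were the spermatid kinase *Tssk6* (2.58 ± 0.33; adjusted p = 1.35e-07) and the sperm fusion gene *Izumo1*. The fall was in *Crem* (0.89 ± 0.15; adjusted p = 7.54e-06). *Izumo1* rose by 2.44 ± 0.62 (adjusted p = 0.00146), and its value was 4.91 without WT-labelled replicate 2 and 1.48 without WT-labelled replicate 1. Of 12 gonadal somatic markers, *Hsd3b1* and *Rhox8* had 0 counts in every library, and 7 could be tested. Of these 5 rose, or 71.4% beside 37.2% of all genes tested, with a median log2 fold change of 2.12 over the 7. None was called lower by edgeR, where none had an unadjusted p below 0.05 in that direction. Among untested markers *Dhh* had 2 and 0 counts in KO-labelled against 10 and 4 in WT-labelled libraries. *Nr5a1*, also untested, had 15 and 2 counts in KO-labelled against 1 and 0 in WT-labelled libraries. *Foxl2*, untested as well, had 4 and 11 counts in KO-labelled against 5 and 7 in WT-labelled libraries. *Cyp11a1* was tested and did not pass, at 0.641 and 0.669 CPM in KO-labelled against 0.769 and 0.975 CPM in WT-labelled libraries. *Gata4* had 8.8 and 8.42 CPM in KO-labelled against 0.199 and 0.794 CPM in WT-labelled libraries, and *Sox9* had 2.59 and 1.37 CPM in KO-labelled against 0.228 and 0 CPM in WT-labelled libraries. *Wt1* had 1.31 and 0.948 CPM in KO-labelled against 0.0285 and 0.181 CPM in WT-labelled libraries. The list summed to 33.1 and 30.3 CPM in KO-labelled and 15 and 16 CPM in WT-labelled libraries, of which *Star*, which did not pass, gave 13.9 and 14.4 CPM in KO-labelled and 12.4 and 11.5 CPM in WT-labelled libraries. The part of these markers in the germline results was not tested.

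Genes whose products repress germline promoters were lower in KO-labelled libraries in 16 of 26 and higher in 9, or 61.5% and 34.6%, beside 35.8% lower and 37.2% higher over all genes tested, with a median log2 fold change of -0.37. *Uhrf1*, which brings the maintenance methyltransferase to replicated DNA, had 288 and 284 CPM in KO-labelled and 808 and 800 CPM in WT-labelled libraries (log2 -1.49 ± 0.026, adjusted p = 3.5e-24). The genes of the DNA methyltransferase family, named after their values were seen, went both ways. *Dnmt1* fell by 0.55 ± 0.027, while *Dnmt3a*, *Dnmt3b* and *Dnmt3l* rose by 0.23 ± 0.037, 0.70 ± 0.032 and 0.38 ± 0.033. *Hdac1*, a histone deacetylase, fell by 0.95 ± 0.032 (adjusted p = 1.44e-18). The PRC1.6 genes *Ring1* and *E2f6* rose, *E2f6* to 51.3 and 51.1 CPM in KO-labelled against 27.7 and 26.3 CPM in WT-labelled libraries (log2 0.92 ± 0.070; adjusted p = 1.59e-11) and *Ring1* by 1.23 ± 0.12 (adjusted p = 1.33e-09). Other genes of that complex, named after their values were seen, went both ways. *Yaf2* and *L3mbtl2* rose by 0.69 ± 0.13 and 0.40 ± 0.046. *Pcgf6*, *Tfdp1* and *Rybp* fell by 0.26 ± 0.055, 0.72 ± 0.036 and 0.33 ± 0.045. *Cbx3* and *Wdr5* fell by 0.40 ± 0.041 and 0.65 ± 0.031, and *Rnf2* did not pass. The E-box binding partners of the complex, also named after their values were seen, differed in direction. *Mga* had 318 and 305 CPM in KO-labelled against 256 and 258 CPM in WT-labelled libraries, and *Max* had 61.7 and 65.8 CPM in KO-labelled against 120 and 125 CPM in WT-labelled libraries. Among 5 genes of DNA demethylation, *Dppa3* and *Tet3* rose (2.12 ± 0.084 and 1.22 ± 0.15), *Tet2* and *Tet1* fell (2.17 ± 0.051 and 0.29 ± 0.027), and *Tdg* did not pass. That is 40% each way, near the 37.2% higher and 35.8% lower over all genes tested.

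The profiles nearest to the mean of the 10 genes, over 83 other germline genes tested and the 4 libraries, were those of *Tex19.1*, *Zpbp* and *Prdm9*, at root mean square distances of 0.0368, 0.0516 and 0.0589 in centred log2(CPM + 1). The mean of the 10, in which rises and falls offset each other, changed little between the groups. None of these 3 genes passed the test (*Tex19.1* did with library size alone, at log2 0.34, and with upper-quartile factors, at 0.21). *Zpbp* had 0.437 and 0.530 CPM in KO-labelled and 0.342 and 0.289 CPM in WT-labelled libraries. *Prdm9* had 2.01 and 2.26 CPM in KO-labelled and 1.51 and 1.84 CPM in WT-labelled ones. At such low levels the added 1 flattens a profile, so their nearness says little.

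**Figure D4:**
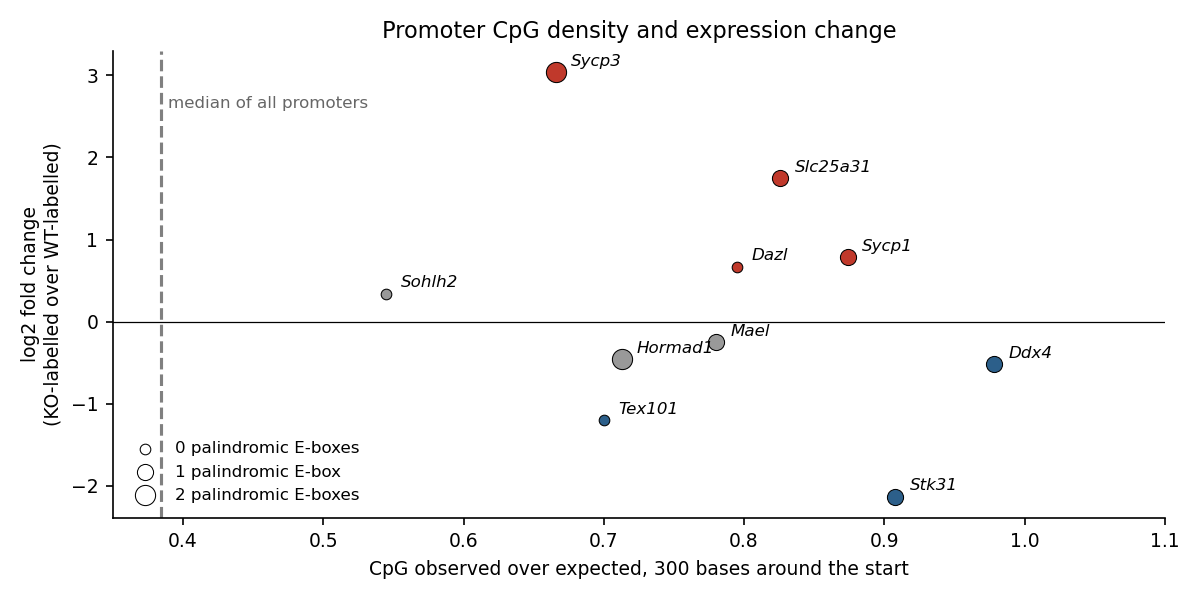
Observed over expected CpG in the 300-base promoter of each germline gene against its log2 fold change (KO-labelled over WT-labelled), with point size for the number of palindromic E-boxes and colour for the call (red higher, blue lower, grey not called). A dashed line marks the median of all promoters at 0.384. Genes that rose and genes that fell lie over overlapping ranges of the CpG ratio, as *Sycp1* at 0.874 and *Stk31* at 0.908 show.

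Among the 10 promoters, those of genes that rose and of genes that fell both had high CpG ratios. Those that rose lay at 0.666 (*Sycp3*), 0.795 (*Dazl*), 0.826 (*Slc25a31*) and 0.874 (*Sycp1*), and those that fell at 0.7 (*Tex101*), 0.908 (*Stk31*) and 0.978 (*Ddx4*). An E-box stood in *Sycp3*, *Slc25a31* and *Sycp1*, which rose, in *Stk31* and *Ddx4*, which fell, and in *Mael* and *Hormad1*, which did not pass. With 10 genes these are descriptions, and no relation was tested.

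The loop lists, 1 per genotype with no replicates kept apart, allow no test. They held 489409 loops and 977208 tags over anchors covering 173 Mb in the KO-labelled list, and 143451 loops and 407150 tags over 92.5 Mb in the WT-labelled list. A loop anchor within 2500 bases of the gene was listed for 3 of the 10 genes in the KO-labelled list (*Dazl*, *Ddx4*, *Stk31*) and 5 in the WT-labelled list (those 3, *Sycp3* and *Hormad1*). Among 35103 genes with coordinates, 54.2% had one in the KO-labelled and 42.6% in the WT-labelled list. Counting loops of 2 or more tags whose false discovery rate (FDR) was 0.01 or less, the genes were 2 (*Ddx4*, *Stk31*) in the KO-labelled and 2 (*Sycp3*, *Stk31*) in the WT-labelled list, against 40.2% and 27.3% of all genes. *Sycp1*, *Mael*, *Tex101*, *Sohlh2* and *Slc25a31* had no loop in either list. *Klf4* itself had 23 loops with 33 tags in the KO-labelled and 9 loops with 41 tags in the WT-labelled list. Whether the labels of these lists carry the same discrepancy as the RNA-seq labels was not tested.

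**Figure D5:**
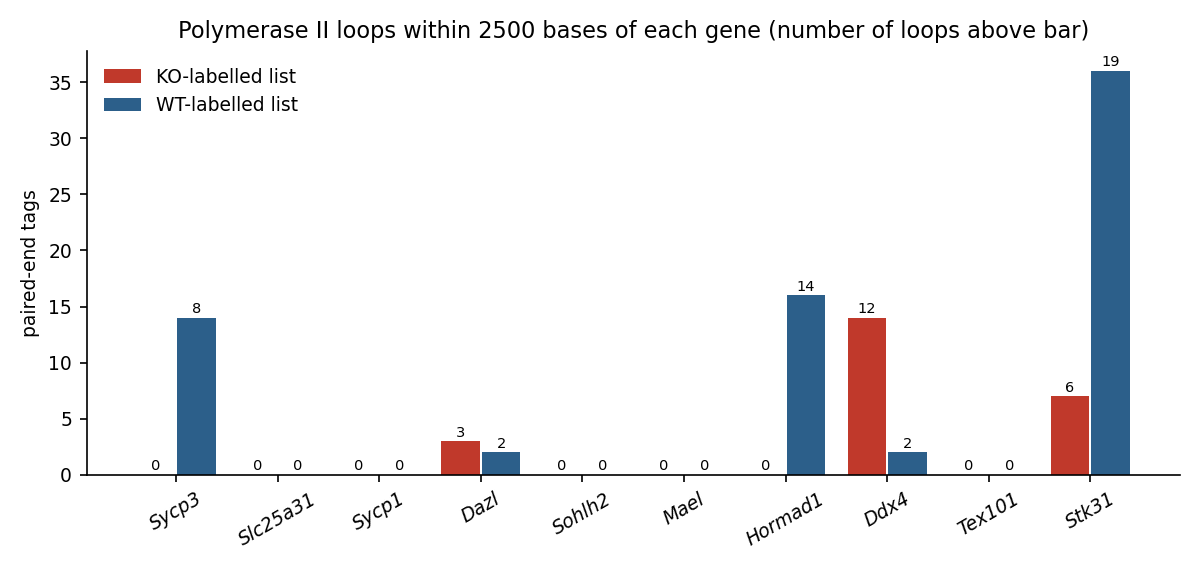
Paired-end tags in loops with an anchor within 2500 bases of each germline gene, in the KO-labelled list (red) and the WT-labelled list (blue), with the number of loops above each bar and genes in the order of their log2 fold change. Each bar is 1 deposited list without replicates. *Stk31* has 7 tags in the KO-labelled and 36 in the WT-labelled list, and 5 genes have none in either.

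*Stk31* had the most loops of the 10 genes in the WT-labelled list, and in the KO-labelled list only *Ddx4* had more. The KO-labelled list gave it 6 loops with 7 tags, all from 1 anchor 35182 bases inside the gene, and the WT-labelled list 19 loops with 36 tags from 2 anchors. One of these covered the transcription start and carried 10 loops with 20 tags. Of these, 2 loops had the most tags, 5 each. One reached 180 kb to an anchor at *Igf2bp3*, an oncofetal RNA-binding gene, with an FDR of 0.000127, and the other spanned 122 kb with an FDR of 0.191. The lowest FDR, 3.63e-05 on 3 tags, belonged to a loop of 393 kb from the other anchor, 17209 bases inside the gene. The KO-labelled list joined *Stk31* to an overlapping anchor at *Igf2bp3* with 1 tag from the inner anchor (FDR 0.0983). In RNA, *Stk31* was lower in KO-labelled libraries.

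*Sycp3* had no loop within 2500 bases in the KO-labelled list, where its RNA was higher, and 8 loops with 14 tags in the WT-labelled list, all from an anchor over its start. Of these, 1 loop with 3 tags, spanning 246 kb, had an FDR of 0.000497, and 5 had a single tag. Within 10000 bases the KO-labelled list held 6 loops with 8 tags and the WT-labelled list 18 with 34. *Ddx4* had 12 loops with 14 tags in the KO-labelled list, from an anchor 11779 bases inside the gene, and 2 single-tag loops from its start in the WT-labelled list. The KO-labelled loops that passed both limits, with 2 tags each, reached 770 kb to an anchor at *Gm15326* (FDR 0.000249) and 288 kb to one at *Dhx29* and *Mtrex* (FDR 0.00251).

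*Dazl* had 3 single-tag loops in the KO-labelled and 2 in the WT-labelled list, from the same anchor over its start (mm10, chromosome 17, 50291864 to 50294698), with none at an FDR of 0.01 or below. *Hormad1* had no loop in the KO-labelled list and 14 with 16 tags in the WT-labelled list. Their anchor lies just past the far end of the gene, 28708 bases from its start, and no loop anchor overlapped *Hormad1* itself. This anchor covers the start of the neighbour *Golph3l*, for which the KO-labelled list likewise gave 0 loops and the WT-labelled list 14.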

How the data were processed

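Raw gene counts, 1 file per RNA-seq library, were deposited by the authors. HISAT2 2.1.0, featureCounts 2.0.3, Bowtie2 2.4.4, MACS2 2.2.7.1 and HiC-Pro 2.11.1 stand in the submitters' processing notes with build mm10, but the closing rows have the form that htseq-count writes, and the strand setting is not given in the sources used here. The 5 rows that name no gene were left out (reads without a feature were 8.07% and 8.00% of KO-labelled and 6.16% and 6.05% of WT-labelled columns). The filter was filterByExpr, the scaling TMM and the test that of edgeR 4.0.16 under R 4.3.3 (robust quasi-likelihood, two-sided, Benjamini-Hochberg over 17273 genes). The procedure was also run on simulated counts in which few genes changed, as many up as down. Such a simulation cannot test the scaling under a shift as wide as here, where 73.0% of genes were called. The standard error of a log2 fold change is its size over the square root of F. Alternatives were 3 other scalings, DESeq2 1.42.0, no filter, a stricter threshold, a replicate block and leaving out each library, and for loops other windows and limits on FDR and tags. A floor of 3 counts corresponds to 0.0836 to 0.108 CPM.

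The deposited loop lists give a count of paired-end tags and an FDR (a q-value) per loop, both the authors' values, and name no caller. Anchors were matched to RefSeq GRCm38.p6 gene spans, the assembly of mm10. RefSeq promoter sequences were searched for CACGTG and TCCCGC on both strands.

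The 10 genes, the lists, the tests and the alternatives were chosen with earlier results of these data known. Genes named are the 10, *Klf4*, in each germline, repressor or demethylation list the 2 called genes that rose most and the 2 that fell most, and the 3 nearest profiles. Neighbours, untested genes and others are named after their values were seen. Replicates of a group correlated at 0.997 on log2(CPM + 1) and differed by more than counting noise (chi-square per degree of freedom 4.32 for KO-labelled and 3.54 for WT-labelled). Intervals and floors cover counting error alone.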

Additional observations from a re-analysis of the deposited data

How the results depend on the processing

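Of 110 values of the 10 genes under the alternatives, 106 kept their direction and their side of the threshold and none reversed. The 4 others were calls gained, 3 in *Sohlh2* and 1 in *Hormad1*, given beside those genes. Over the alternatives adjusted p ran from 7.01e-05 to 0.0408 for *Dazl*, 0.00449 to 0.0426 for *Tex101* and 0.0424 to 0.506 for *Hormad1*. The log2 change of *Sycp3* lay between 2.89 and 3.17 and that of *Stk31* between -2.25 and -2.02 without any 1 library. The members called higher and lower numbered 4 to 5 and 3 to 4 in the same fits. Germline transcription factors called lower numbered 1 without the filter on low counts and 0 to 1 without 1 library, and the cause was not tested. Samples share only their replicate numbers, whose deviations from the group means correlated at 0.0196. With the replicate block 6298 genes were higher and 6112 lower, and 4 and 3 of the 10 genes, none of whose calls it changed. Members with a loop fell to 2 in the WT-labelled list at an FDR of at most 0.01 and 2 tags, and to 1 in the KO-labelled list with anchors within 2500 bases of the transcription start, a setting chosen after seeing the data. With 2 libraries per group and, for *Tex101*, *Mael*, *Hormad1* and *Slc25a31*, 20 to 117 counts per library, small differences in these genes were not detectable at this depth.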
